A study of Rattus norvegicus with 12 samples.

Results

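The collagens, the small leucine-rich proteoglycans that coat collagen fibrils and the enzymes that modify and crosslink collagen were followed in rat bone. The rule for members used gene names and no measured value, although earlier results of these data were known when it was set. It took probe sets with exactly 1 gene symbol that is a collagen chain (type I, type II, type X and the Col9a1 and Col11a1 chains were left out), a lysyl oxidase, a lysyl hydroxylase, a prolyl 4-hydroxylase alpha subunit, or 1 of 10 small proteoglycans. This gave 71 probe sets for 53 genes of the 31042 probe sets tested. Collagens made up 46 probe sets for 35 genes, small proteoglycans 12 probe sets for 8 genes, and enzymes 13 probe sets for 10 genes. The rule also names Kera and Epyc among the small proteoglycans, and no probe set with 1 symbol carried either name.

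The study asked how a soy diet and estradiol each change gene expression in the bone of young female rats before puberty. A total of 4 groups were compared. SPI rats ate a diet whose protein source was soy protein isolate. E2 rats ate the casein diet and received 17 beta estradiol (17 beta estrodial in the labels) at 10 µg/kg/d from an osmotic pump under the skin. SPI+E2 rats had both the soy diet and the pump, and CAS rats had the casein diet alone. All were female Sprague-Dawley rats, sampled at postnatal day 34 after a treatment that the labels start at day 21 and the study's methods at weaning on day 20. Both diets followed the AIN-93G formula with equal energy, nitrogen, calcium and phosphorus, so every group shared that base. RNA came from the right tibia after the marrow had been aspirated, and each of the 3 arrays of a group held a pool of 2 to 3 rats. A p-value here rests on how much pools of 1 group differ, since single rats were not measured, and the 3 arrays per group limit the precision.

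Fibrillar collagens carry most of the tensile strength of bone, tendon and skin, and the other collagens attach to fibrils, form sheets in basement membranes or span the cell membrane. New chains are hydroxylated on proline and lysine in the endoplasmic reticulum, and after secretion lysyl oxidases turn lysines into the aldehydes from which crosslinks form. Small leucine-rich proteoglycans bind to the fibril surface, where they set fibril diameter and spacing, and several of them also bind growth factors.

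Values were normalized log2 values centred on each probe set's median over the 12 arrays, so only differences between groups can be read and the levels of different genes cannot be compared. The label of the tissue could for the same reason not be tested by the level of its markers. The 4 probe sets of type I collagen, the main collagen of bone, differed from CAS by -0.07 to 0.02 log2 units in the SPI, E2 and SPI+E2 groups, and none passed the test. Arrays of 1 group correlated at 0.279 to 0.542 over all probe sets. The array SPI 1 had the widest spread of values, with an SD of 0.211 against 0.128 to 0.164 on the other 11 arrays. Over the members the median SD between pools was 0.0709 in SPI, 0.0368 in E2, 0.0516 in SPI+E2 and 0.042 in CAS. The bone was not separated into cells, so fewer cells of a type and less RNA per cell cannot be told apart.

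Many members were lower on the soy diet, with or without E2, and few passed the test with E2 alone. With SPI, 32 of the 71 probe sets fell and 1 rose against CAS at an adjusted p under 0.05 (limma), while 9.07% of all probe sets fell and 8.25% rose. With SPI+E2, 28 fell and 0 rose against CAS, beside 4.33% and 4.14% of all probe sets. With E2 alone 3 rose and 3 fell, which is 4.23% of the members in each direction beside 4.99% and 4.36% of all probe sets. The share of members that fell was thus 45.1% with SPI and 39.4% with SPI+E2, well above the background, and with E2 it was close to it. These 3 comparisons share the CAS arrays.

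The differences were small. The median log2 difference of the 71 members from CAS was -0.14 in SPI (all probe sets 0.01), 0.02 in E2 (-0.01) and -0.16 in SPI+E2 (0.02). Members that fell with SPI did so by 0.14 to 0.79 log2 units. Means at least 1.5-fold lower than CAS were found for 3 members in SPI (0.451% of all probe sets) and 1 in SPI+E2 (0.197%), and for 0 members in E2, where 1.11% of all probe sets were higher and 0.535% lower by that much. The 3 members in SPI were Col9a3, Col25a1 and Loxl2 (1380474_at), and without SPI 1 only Col9a3 was left. The 1 in SPI+E2 was Col9a3, and without CAS 2 or SPI+E2 3 the count was 2. All 3 SPI arrays lay below all 3 CAS arrays for 45 members (17.7% of all probe sets) and above them for 1 (16.2%), and all 3 SPI+E2 arrays lay below for 42 (14.4%) and above for 3 (16.1%). For E2, the arrays lay above CAS for 22 members, 31% of them beside 14.7% of all probe sets. They lay below CAS for 14, 19.7% beside 15.1%. By this measure the upward share with E2 was above that of all probe sets, although few members passed the test.

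**Figure D1:**
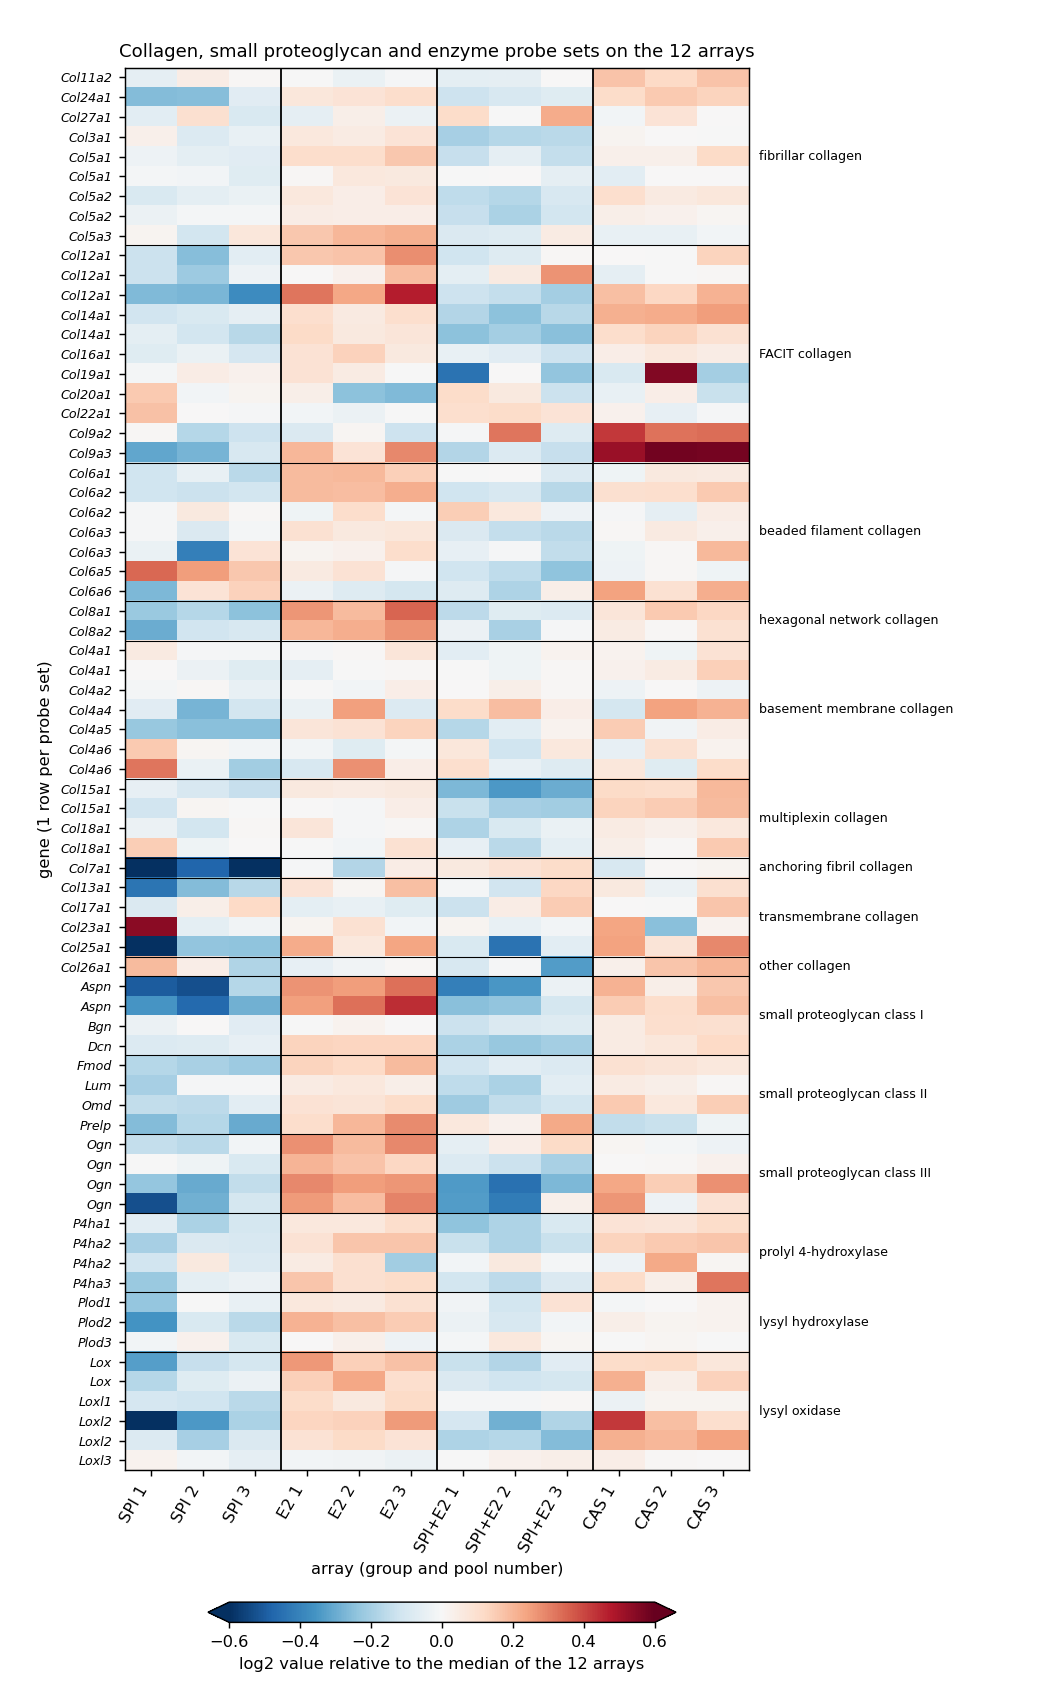
Normalized log2 values of the 71 probe sets (rows, grouped by class) on the 12 arrays (columns), relative to each probe set's median. Red is above and blue below that median. The mean over all 71 lay between -0.12 and -0.09 on the SPI arrays, 0.08 and 0.10 on the E2 arrays, -0.10 and -0.06 on the SPI+E2 arrays, and 0.07 and 0.10 on the CAS arrays.

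Counted by gene, 26 of the 53 genes had a probe set that fell with SPI, 23 had one that fell with SPI+E2 and 3 had one that fell with E2. Such counts favour genes with several probe sets, and their share over all genes was not computed. With the probe sets of a gene averaged, 29 of 53 genes passed in either direction with SPI (25.4% of all genes). The counts were 21 with SPI+E2 (12.9%) and 5 with E2 (14.2%). Among the families, 17 of 46 collagen, 7 of 12 small proteoglycan and 8 of 13 enzyme probe sets fell with SPI (9.07% of all probe sets). With SPI+E2 the counts were 15, 7 and 6 (4.33%). With E2, 1 collagen and 2 small proteoglycan probe sets rose (4.99% of all probe sets) and 3 collagen probe sets fell (4.36%). In the enzymes 0 passed the test with E2.

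**Figure D2:**
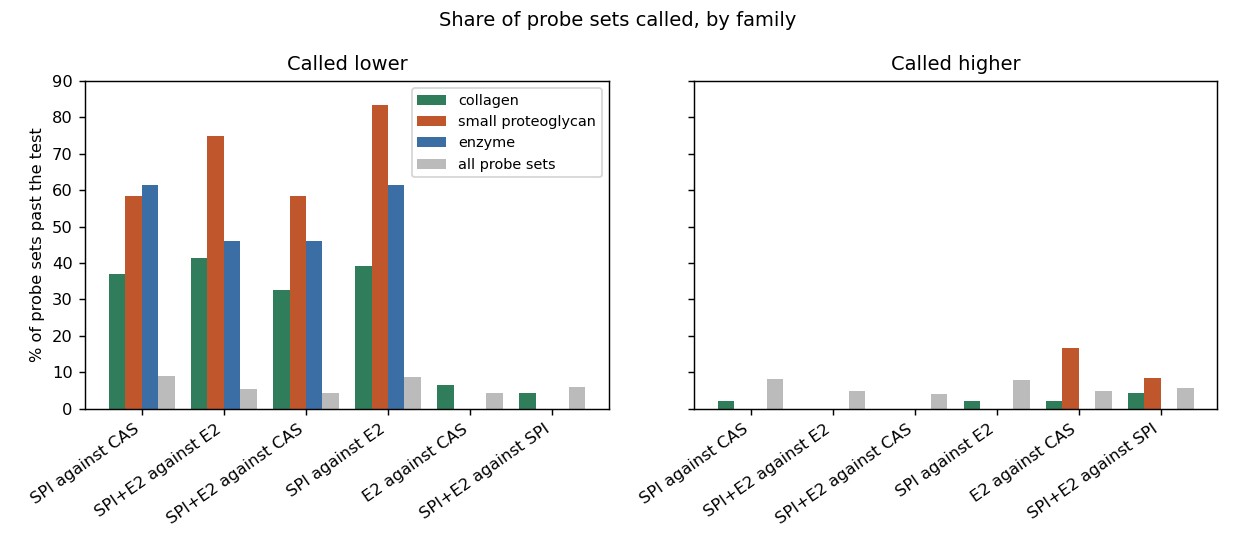
Percentage of probe sets past the test (y axis) in 6 comparisons (x axis), called lower in the left panel and higher in the right panel, for the 3 families and for all probe sets (grey). In the 4 comparisons of a soy group with a casein group each family stands above the grey bar among the lower calls, and in those comparisons 0 or 1 of the 71 probe sets was called higher.

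Among the collagens, the class that sits on the surface of fibrils (FACIT) held the member with the largest fall. Col9a3, a chain of the type IX collagen of cartilage fibrils, read -0.31, -0.28 and -0.10 on the SPI arrays, 0.20, 0.08 and 0.29 on the E2 arrays, -0.18, -0.08 and -0.14 on the SPI+E2 arrays, and 0.52, 0.58 and 0.58 on the CAS arrays. All 9 arrays of the treated groups lay below all 3 CAS arrays. With SPI the fall was 1.72-fold (log2 -0.79 ± 0.07, SE, adjusted p = 1.19e-05, limma). With E2 it was 1.29-fold (-0.37 ± 0.07, adjusted p = 0.00425), and the SPI+E2 arrays showed a fall of 1.61-fold (-0.69 ± 0.07, adjusted p = 0.000141). Its partner chain Col9a2 fell by 0.46 with SPI and by 0.43 with E2, and its difference with SPI+E2 was -0.28 (adjusted p = 0.086). The call of Col9a2 with E2 was lost without CAS 1 or without E2 3, where the adjusted p reached 0.0542.

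Type XII and type XIV collagens decorate type I fibrils in tendon and periosteum. Of 3 probe sets for Col12a1 only 1398321_a_at passed against CAS. It read -0.27, -0.27 and -0.38 on the SPI arrays, 0.32, 0.23 and 0.47 on the E2 arrays, -0.12, -0.15 and -0.20 on the SPI+E2 arrays, and 0.18, 0.12 and 0.21 on the CAS arrays. The soy groups lay below CAS and the E2 arrays above it, without overlap. The fall was -0.48 ± 0.06 with SPI (adjusted p = 0.000369), and in SPI+E2 it was -0.33 ± 0.06 (adjusted p = 0.00914), and the E2 difference of 0.17 did not pass (adjusted p = 0.144). The other probe sets of Col12a1 gave -0.19 (adjusted p = 0.0615) and -0.11 (adjusted p = 0.428) with SPI, and -0.11 (adjusted p = 0.352) and 0.10 (adjusted p = 0.496) with SPI+E2. Both probe sets of Col14a1 fell with SPI, by 0.32 and 0.22, and with SPI+E2, by 0.42 and 0.34. Of the 11 probe sets of this class, 5 fell on the soy diet without E2 (9.07% of all probe sets). In SPI+E2 4 fell (4.33%) and in the E2 group 2 fell (4.36%), while Col16a1, Col19a1, Col20a1 and Col22a1 did not pass against CAS in any group.

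Of 9 probe sets for fibrillar collagens other than types I and II, 3 fell with SPI (9.07% of all probe sets) and 6 with SPI+E2 (4.33%). The largest fall in both groups was in Col24a1, a fibrillar chain found with type I collagen in forming bone. It read -0.26, -0.26 and -0.07 on the SPI arrays, 0.07, 0.08 and 0.10 on the E2 arrays, -0.12, -0.10 and -0.07 on the SPI+E2 arrays, and 0.11, 0.15 and 0.13 on the CAS arrays. Both soy groups lay below CAS, by 0.33 ± 0.06 with SPI (adjusted p = 0.00186) and by 0.23 ± 0.06 with SPI+E2 (adjusted p = 0.0255), a call lost without any 1 of the CAS arrays, SPI+E2 1 or SPI+E2 2 (adjusted p up to 0.0804). Col3a1, the type III collagen of elastic tissues, fell by 0.18 with SPI+E2 and differed by -0.04 with SPI (adjusted p = 0.624). Col5a2, of the type V collagen that starts fibrils, fell on both its probe sets with SPI+E2 (-0.21 and -0.17). Col5a3, a further type V chain, rose with E2 alone, by 0.23 ± 0.06 (adjusted p = 0.0264). Col11a2, a cartilage chain, fell in all treated groups, by 0.15 in SPI and 0.17 in E2, and in SPI+E2 the fall was 0.19. Col5a1, also a type V chain, fell by 0.17 with SPI+E2 on 1369955_at (adjusted p = 0.0462), a call held in 2 of 12 runs without 1 array, and its other probe set gave 0.00. The SPI call of Col24a1 held in all 12 runs, and the other calls of this class against CAS were each lost in 1 or more. Without 1 array the adjusted p reached 0.153 for Col5a2 with SPI, which lost its call in each run, 0.0898 for Col5a3 with E2, which kept it in 6 of 12, and 0.131 for Col11a2 with E2, which kept it in 3. With SPI+E2, Col3a1 kept its call in 6 of 12 runs, Col11a2 in 8, and Col5a2 in 11 on 1370895_at and in 7 on 1373463_at, and with SPI Col11a2 kept it in 2.

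The beaded filament collagens of type VI form fine networks around cells. Col6a2 on 1371369_at fell by 0.24 with SPI and by 0.25 with SPI+E2, whereas its other probe set gave 0.03 and 0.07 without passing. Col6a5 was the only member that rose with SPI. Its values were 0.35, 0.25 and 0.16 on the SPI arrays, 0.05, 0.09 and -0.01 on the E2 arrays, -0.12, -0.15 and -0.24 on the SPI+E2 arrays, and -0.03, 0.01 and -0.03 on the CAS arrays. The SPI arrays lay above and the SPI+E2 arrays below every other array. The rise with SPI was 0.27 ± 0.06 (adjusted p = 0.00672), and the SPI+E2 difference from CAS was -0.15 (adjusted p = 0.127). Col6a3 fell with SPI+E2 on 1 of its probe sets (-0.16), a call that held in 2 of the 12 runs without 1 array.

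Col8a1 and Col8a2 encode the hexagonal network collagen of vessel walls and of the corneal basement membrane. Col8a1 read -0.22, -0.17 and -0.25 on the SPI arrays, 0.27, 0.19 and 0.35 on the E2 arrays, -0.16, -0.07 and -0.08 on the SPI+E2 arrays, and 0.07, 0.16 and 0.12 on the CAS arrays. It fell by 0.33 ± 0.05 with SPI (adjusted p = 0.00126) and by 0.22 ± 0.05 with SPI+E2 (adjusted p = 0.0256), and E2 gave 0.15 (adjusted p = 0.119). The call with SPI+E2 was lost without any 1 of the CAS arrays, SPI+E2 1 or SPI+E2 2 (adjusted p up to 0.0901), and that of Col8a2 with SPI (-0.22) held in 3 of 12 runs without 1 array.

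Collagens of the basement membrane were measured by 7 probe sets for 5 type IV chains. Only Col4a5 fell with SPI (9.07% of all probe sets), and none passed with E2 or SPI+E2. Under E2 alone 4.36% of all probe sets fell and 4.99% rose, and in SPI+E2 rats 4.33% fell and 4.14% rose. At such shares 7 probe sets are too few to show whether this class differed less than all probe sets. Col4a5 read -0.23, -0.25 and -0.25 on the SPI arrays, 0.07, 0.09 and 0.13 on the E2 arrays, -0.17, -0.06 and 0.02 on the SPI+E2 arrays, and 0.15, -0.02 and 0.04 on the CAS arrays. The SPI arrays lay together below all others, and the SPI+E2 arrays overlapped CAS. Its fall with SPI was -0.30 ± 0.06 (adjusted p = 0.00513). Col4a6, a chain gene near Col4a5 on chromosome X, gave 0.03 and -0.01 with SPI on its probe sets and did not pass.

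Col15a1, a collagen of the zone beneath basement membranes, fell on both its probe sets in both soy groups. On 1379345_at it read -0.05, -0.10 and -0.14 on the SPI arrays, 0.06, 0.05 and 0.06 on the E2 arrays, -0.27, -0.35 and -0.30 on the SPI+E2 arrays, and 0.11, 0.11 and 0.19 on the CAS arrays. The order from low to high was SPI+E2, SPI, E2 and CAS, with no overlap between groups. The fall was -0.23 ± 0.05 with SPI (adjusted p = 0.00526), and in SPI+E2 it was -0.44 ± 0.05 (adjusted p = 0.000211), and SPI+E2 lay 0.21 below SPI (adjusted p = 0.0128, 0.0509 without SPI+E2 2). On the probe set 1388939_at the call with SPI was lost without CAS 2, CAS 3 or SPI 1, where the adjusted p reached 0.0728. Col18a1, the related collagen that gives rise to endostatin, did not pass in any comparison.

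Col7a1, the collagen of the anchoring fibrils of skin, fell with SPI and not with SPI+E2. It read -0.63, -0.48 and -0.62 on the SPI arrays, -0.01, -0.18 and 0.04 on the E2 arrays, 0.06, 0.08 and 0.11 on the SPI+E2 arrays, and -0.10, 0.01 and 0.02 on the CAS arrays. The SPI arrays stood apart from the other 9. The difference from CAS was -0.55 ± 0.07 with SPI (1.47-fold lower, adjusted p = 0.000161), -0.02 in E2 (adjusted p = 0.912) and 0.11 in the SPI+E2 group (adjusted p = 0.367).

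Among the transmembrane collagens Col25a1, expressed in neurons and in developing muscle, had an uneven fall. It read -1.13, -0.24 and -0.24 on the SPI arrays, 0.22, 0.06 and 0.24 on the E2 arrays, -0.09, -0.44 and -0.06 on the SPI+E2 arrays, and 0.24, 0.08 and 0.29 on the CAS arrays. All SPI arrays lay below CAS, and SPI 1 lay far below the other SPI arrays. The difference was -0.74 ± 0.20 with SPI (adjusted p = 0.0241), it lay between -0.89 and -0.44 when 1 array was left out, and the call was lost without CAS 1 or CAS 3, where the adjusted p reached 0.0797. Col13a1, a collagen of the neuromuscular junction, fell by 0.33 with SPI, a call lost without CAS 1, CAS 3 or SPI 1 (adjusted p up to 0.0675). Neither passed with SPI+E2 against CAS, and the transmembrane collagens Col17a1 and Col23a1 passed in no comparison.

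Of the 12 small proteoglycan probe sets, 7 fell with SPI (9.07% of all probe sets fell), 7 fell with SPI+E2 (4.33%), and 2 rose with E2 (4.99% rose). Asporin (Aspn), which binds collagen and is known to restrain TGF-beta, read -0.35, -0.47 and -0.29 on the SPI arrays, 0.25, 0.33 and 0.45 on the E2 arrays, -0.25, -0.24 and -0.11 on the SPI+E2 arrays, and 0.15, 0.11 and 0.18 on the CAS arrays (1381504_at). The soy arrays lay below every casein array and the E2 arrays above CAS. Its fall was -0.52 ± 0.07 with SPI (1.43-fold, adjusted p = 0.000287), and in SPI+E2 it was -0.34 ± 0.07 (1.27-fold, adjusted p = 0.00887), and the E2 difference of 0.19 did not pass (adjusted p = 0.109). The other probe set of Aspn, 1380726_at, fell by 0.53 ± 0.11 with SPI (adjusted p = 0.00554) and by 0.40 ± 0.11 with SPI+E2 (adjusted p = 0.0426). That last call held in 4 of 12 runs without 1 array, where the adjusted p reached 0.14.

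Osteoglycin (Ogn), a proteoglycan of bone and connective tissue, is measured by 4 probe sets that did not give 1 picture. On 1385248_a_at it read -0.23, -0.30 and -0.15 on the SPI arrays, 0.29, 0.25 and 0.26 on the E2 arrays, -0.34, -0.45 and -0.27 on the SPI+E2 arrays, and 0.23, 0.15 and 0.27 on the CAS arrays. Both soy groups lay well below both casein groups, by 0.45 ± 0.06 for SPI (1.36-fold, adjusted p = 0.000385) and 0.57 ± 0.06 for SPI+E2 (1.49-fold, adjusted p = 0.000211) against CAS. On 1376749_at it instead rose with E2, by 0.26 ± 0.06 (adjusted p = 0.0142), and the differences of -0.10 with SPI and 0.04 with SPI+E2 did not pass. The call with E2 was lost without CAS 3, E2 1 or E2 3, where the adjusted p reached 0.0607. The probe set 1390450_a_at fell with SPI (-0.41, adjusted p = 0.0433, held in 4 of 12 runs without 1 array), and 1383263_at did not pass against CAS.

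Ogn, osteomodulin (Omd, a bone proteoglycan that binds mineral and cells) and Aspn lie next to each other on chromosome 17 with no other protein-coding gene between them in the current rat annotation. Omd read -0.15, -0.16 and -0.06 on the SPI arrays, 0.09, 0.08 and 0.11 on the E2 arrays, -0.21, -0.15 and -0.11 on the SPI+E2 arrays, and 0.16, 0.06 and 0.15 on the CAS arrays. It fell by 0.25 ± 0.05 with SPI (adjusted p = 0.00531) and by 0.28 ± 0.05 with SPI+E2 (adjusted p = 0.00534), so that each of these 3 neighbours had a probe set that fell in both soy groups.

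The sequence before the start of each of these 3 genes is shown because they are neighbours that each had a probe set lower in both soy groups. For Ogn this was 1 of its 4 probe sets. Each run is 250 bases, 5′ to 3′ on the gene's strand (minus for all 3), from RefSeq, build GRCr8: chr17:15258996-15259245 for Ogn, chr17:15274871-15275120 for Omd and chr17:15310470-15310719 for Aspn. Capitals mark a match to TATAAA on the gene's strand, the only searched motif found in any of them.
Ogn: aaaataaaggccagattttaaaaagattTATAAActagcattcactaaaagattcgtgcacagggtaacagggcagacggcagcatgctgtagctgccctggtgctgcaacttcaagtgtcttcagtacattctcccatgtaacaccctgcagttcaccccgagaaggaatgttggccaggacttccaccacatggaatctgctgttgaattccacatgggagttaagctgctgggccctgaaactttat
Omd: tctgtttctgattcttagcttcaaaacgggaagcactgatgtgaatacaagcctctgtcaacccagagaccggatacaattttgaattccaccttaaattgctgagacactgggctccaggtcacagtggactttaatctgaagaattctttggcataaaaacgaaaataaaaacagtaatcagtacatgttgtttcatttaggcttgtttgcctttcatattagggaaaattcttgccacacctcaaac
Aspn: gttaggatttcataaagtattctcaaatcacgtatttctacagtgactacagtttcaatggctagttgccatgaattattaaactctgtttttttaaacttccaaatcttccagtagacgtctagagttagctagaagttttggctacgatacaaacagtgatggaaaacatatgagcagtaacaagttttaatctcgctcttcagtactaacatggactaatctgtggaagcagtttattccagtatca

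Searched on both strands were the palindromic consensus estrogen response element, TGANTCA (AP-1) and CCAAT, and on the gene's strand TATAAA. The reference table held 44 promoter entries for 41 of the 53 member genes, among 33469 entries. The estrogen response element was in 0 of the 44 and in 0.0239% of all entries. TGANTCA was in 1 (Col6a1) beside 6.34% of all, CCAAT in 9 entries (20.5%) beside 34%, and TATAAA in 3 (6.82%) beside 8.06%. A missing match says only that these letters are not in this window.

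Of the remaining small proteoglycans, fibromodulin (Fmod), which guides fibril assembly in tendon, fell by 0.28 ± 0.04 with SPI (adjusted p = 0.00101) and by 0.17 ± 0.04 with SPI+E2 (adjusted p = 0.0348, held in 5 of 12 runs without 1 array). Decorin (Dcn), the most studied regulator of fibril diameter, read -0.08, -0.08 and -0.05 on the SPI arrays, 0.13, 0.13 and 0.13 on the E2 arrays, -0.19, -0.23 and -0.20 on the SPI+E2 arrays, and 0.05, 0.07 and 0.12 on the CAS arrays. The groups did not overlap, with SPI+E2 lowest and E2 highest. Dcn fell by 0.28 ± 0.04 with SPI+E2 (adjusted p = 0.00173) and by 0.15 ± 0.04 with SPI (adjusted p = 0.0296). The call with SPI was lost without any 1 of the CAS arrays, SPI 1 or SPI 2 (adjusted p up to 0.115). Biglycan (Bgn) fell by 0.18 with SPI+E2 (adjusted p = 0.0255, up to 0.0885 without any 1 of the CAS arrays, SPI+E2 1 or SPI+E2 2) and differed by -0.12 with SPI (adjusted p = 0.0946). Lumican (Lum) did not pass in any comparison.

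Prelp, which tethers basement membranes to connective tissue, moved differently from its class. It read -0.26, -0.17 and -0.30 on the SPI arrays, 0.10, 0.20 and 0.28 on the E2 arrays, 0.07, 0.03 and 0.23 on the SPI+E2 arrays, and -0.15, -0.14 and -0.03 on the CAS arrays. Both groups with E2 lay above both groups without it. It rose with E2 by 0.30 ± 0.07 against CAS (1.23-fold, adjusted p = 0.0168), a call lost without CAS 1, CAS 2, E2 2 or E2 3 (adjusted p up to 0.077). SPI+E2 gave 0.21 (adjusted p = 0.086) and SPI -0.14 (adjusted p = 0.198) against CAS. Prelp lies next to Fmod, with no protein-coding gene between them.

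**Figure D3:**
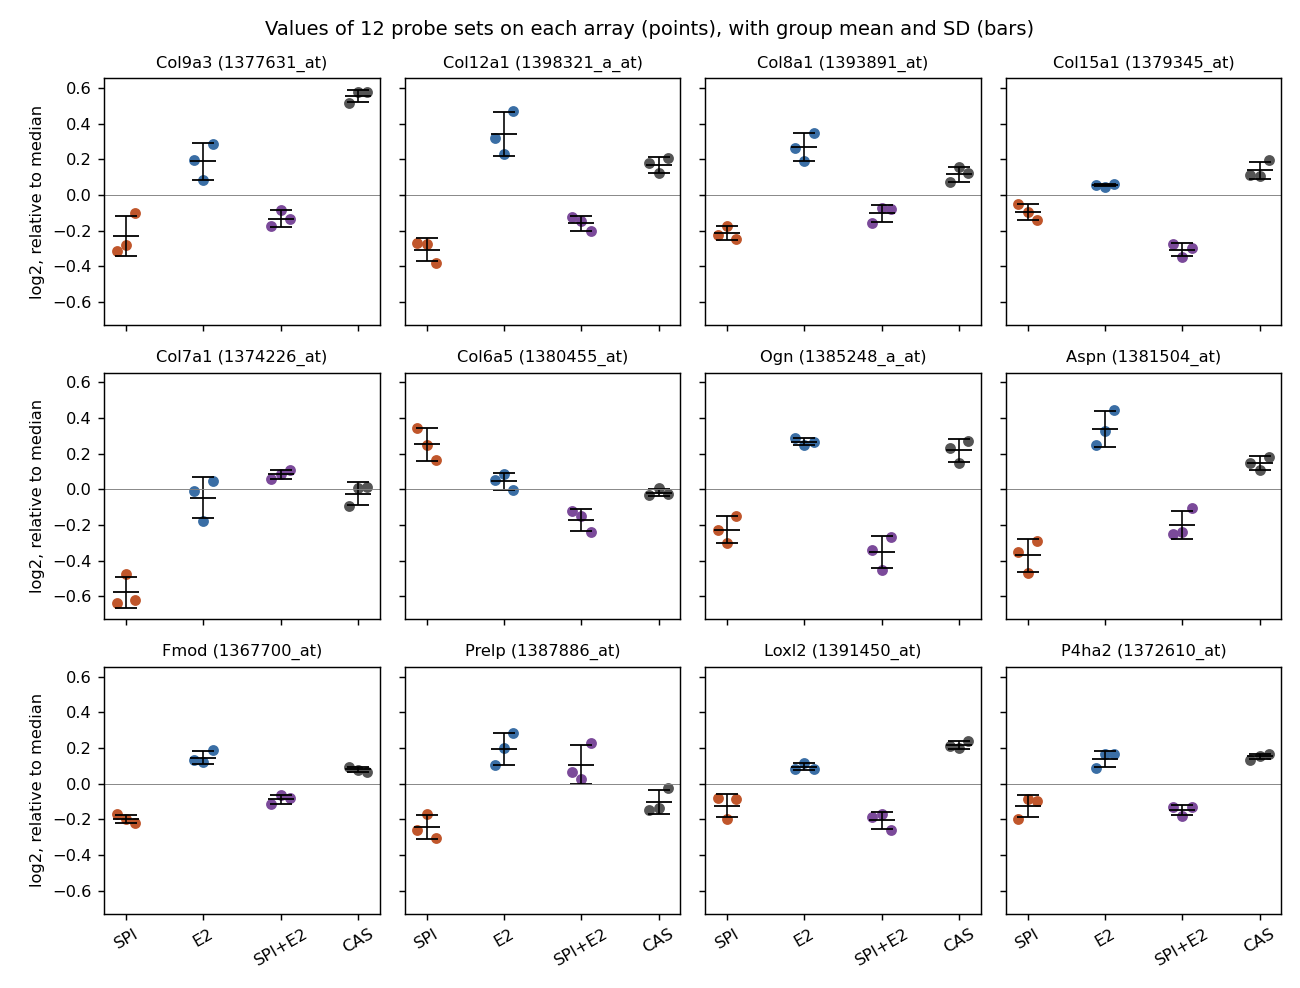
Normalized log2 values of 12 probe sets (y axis, relative to the probe set's median) on each array, by group (x axis), with the group mean and SD of 3 arrays. For Col12a1, Col8a1, Ogn, Aspn, Fmod, Loxl2 and P4ha2 the SPI and SPI+E2 arrays lie below both E2 and CAS, Col7a1 is low in SPI alone, Col6a5 is high in SPI alone, and Prelp is high in both groups with E2.

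Of the enzymes, 3 of 4 prolyl 4-hydroxylase, 1 of 3 lysyl hydroxylase and 4 of 6 lysyl oxidase probe sets fell with SPI (9.07% of all probe sets). The lysyl hydroxylase count rests on 1 probe set, that of Plod2. Loxl2, a lysyl oxidase that acts on collagen IV among others, read -0.62, -0.35 and -0.19 on the SPI arrays, 0.13, 0.14 and 0.25 on the E2 arrays, -0.10, -0.29 and -0.18 on the SPI+E2 arrays, and 0.42, 0.18 and 0.10 on the CAS arrays (1380474_at). Both soy groups lay below both casein groups, with a wide spread in SPI and CAS. The fall was 1.54-fold with SPI (-0.62 ± 0.11, adjusted p = 0.00221) and 1.34-fold in the SPI+E2 arrays (-0.43 ± 0.11, adjusted p = 0.0327). The call with SPI+E2 was lost without CAS 1, CAS 2 or any 1 of the SPI+E2 arrays (adjusted p up to 0.126). Its other probe set, 1391450_at, had a narrower spread and fell by 0.34 ± 0.05 (adjusted p = 0.000573) and by 0.42 ± 0.05 (adjusted p = 0.000376).

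Lox, the founding lysyl oxidase, fell with SPI on both probe sets, by 0.29 and 0.22, and with SPI+E2 on 1 of them (-0.23), while the other gave -0.22 (adjusted p = 0.0527). The smaller of these SPI calls was lost without CAS 1, CAS 3, SPI 1 or SPI 2 (adjusted p up to 0.107), and the SPI+E2 call held in 6 of 12 runs. Loxl1, needed for elastic fibres, and Loxl3 did not pass against CAS. Plod2, the lysyl hydroxylase of the chain ends where crosslinks form, read -0.36, -0.09 and -0.16 on the SPI arrays, 0.21, 0.18 and 0.15 on the E2 arrays, -0.03, -0.09 and -0.02 on the SPI+E2 arrays, and 0.03, 0.02 and 0.02 on the CAS arrays. It fell by 0.23 ± 0.06 with SPI (adjusted p = 0.0277), with a difference of -0.15 and no call without SPI 1, and the call was also lost without CAS 1, CAS 2 or CAS 3. Plod1 and Plod3 passed in no comparison.

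All 3 alpha subunits of prolyl 4-hydroxylase, the enzyme that makes the collagen helix stable at body heat, fell in both soy groups. P4ha2 read -0.20, -0.09 and -0.10 on the SPI arrays, 0.09, 0.17 and 0.16 on the E2 arrays, -0.13, -0.18 and -0.13 on the SPI+E2 arrays, and 0.14, 0.16 and 0.17 on the CAS arrays (1372610_at). The soy arrays lay below 0 and the casein arrays above it. Its fall was -0.28 ± 0.05 with SPI (adjusted p = 0.00198), and in SPI+E2 it was -0.30 ± 0.05 (adjusted p = 0.00283), and a probe set of the same gene, 1375332_at, did not pass. P4ha1 fell by 0.21 with SPI and 0.26 with SPI+E2, and P4ha3 by 0.26 and 0.27. The SPI call of P4ha1 was lost without CAS 1, CAS 3 or SPI 2 (adjusted p up to 0.0707), that of P4ha3 also without SPI 1 (adjusted p up to 0.12), and the SPI+E2 call of P4ha3 held in 3 of 12 runs.

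E2 alone called Prelp, Ogn (1376749_at) and Col5a3 higher and Col9a2, Col9a3 and Col11a2 lower. The 3 lower genes encode chains of cartilage fibrils, but their count was near the share of all probe sets (4.23% beside 4.36%). Of these 6 calls only Col9a3 held in all 12 runs that left out 1 array. The count was 1 without E2 3, 2 without CAS 1, and 3 each without CAS 2, CAS 3, E2 1 or E2 2. The SPI count of 33 was 21 without CAS 3, and 21 of the 33 calls held in all 12 runs. The SPI+E2 count of 28 was 14 without CAS 1, 18 without CAS 2, 16 without CAS 3, 15 without SPI+E2 1 and 17 without SPI+E2 2, with 14 held in all 12 runs.

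The soy diet can be read on the casein background (SPI against CAS) and on the E2 background (SPI+E2 against E2), and these comparisons share no array, although they share the fit's estimate of spread. In SPI+E2, 34 members were lower and 0 higher than in E2 (5.53% and 4.92% of all probe sets). A total of 23 members fell in both comparisons, 67.6% of the 34 that fell under E2 and 71.9% of the 32 that fell without it. Over all probe sets 432 fell in both, 25.2% and 15.4% of the lists. Over the 71 members the differences correlated with r = 0.522 (Spearman rho 0.573), and over all 31042 probe sets with r = -0.00953 (rho 0.19), given as a description since probe sets share arrays and targets.

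**Figure D4:**
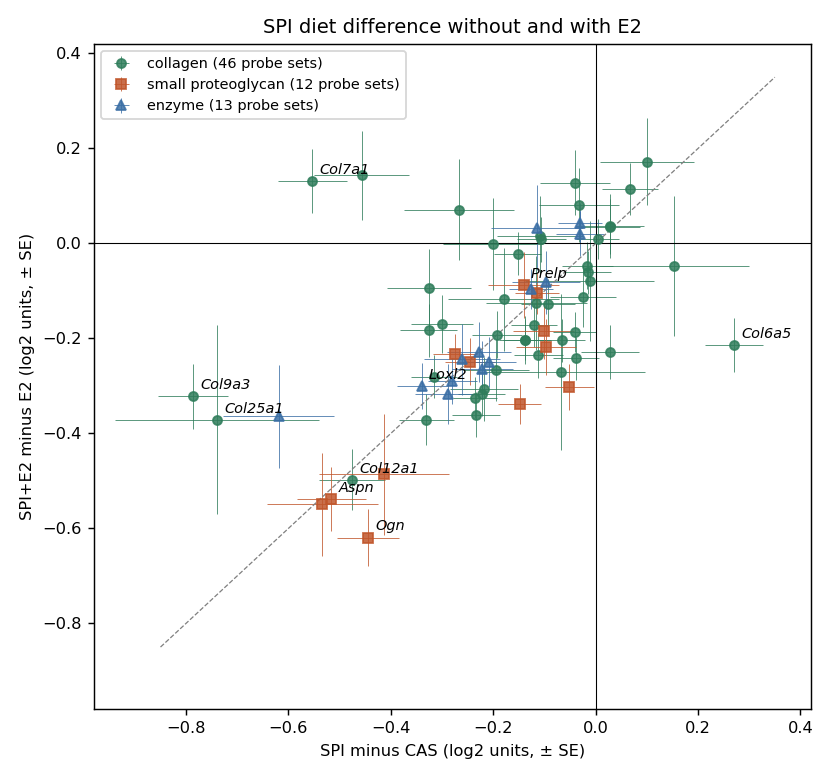
Log2 difference SPI minus CAS (x axis) against SPI+E2 minus E2 (y axis) for the 71 probe sets, with the SE of each, by family. The dashed line marks equal differences. A total of 53 probe sets lie below 0 on both axes, Col7a1 lies low on the x axis and above 0 on the y axis, and Col6a5 lies above 0 on the x axis and below 0 on the y axis.

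Under E2 the largest falls were in Ogn (1385248_a_at, -0.62 ± 0.06, adjusted p = 9.5e-05), both Aspn probe sets (-0.55 and -0.54), Col12a1 (-0.50), a further Ogn probe set (1390450_a_at, -0.49), Col8a1 (-0.37) and Col15a1 (-0.36). All 4 Ogn probe sets fell in this comparison, and without 1 array 1390450_a_at kept its call in 7 of 12 runs and 1376749_at in 5. Col3a1, Col5a1 (1369955_at) and Col6a1 fell by 0.24, 0.24 and 0.20 here, did not pass with SPI against CAS, and of their calls here only that of Col6a1 was lost without 1 array (held in 6 of 12 runs). The count of 34 was 20 without E2 3 and 22 without SPI+E2 2. All 3 SPI+E2 arrays lay below all 3 E2 arrays for 46 members (14.9% of all probe sets) and above them for 3 (17.2%), and 1 member, Ogn on 1385248_a_at, was at least 1.5-fold lower (0.628%). That count was 0 without SPI+E2 2 and 3 without SPI+E2 3.

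The interaction, the soy difference under E2 minus that without it, passed for 5 members, 3 upward (4.17% of all probe sets) and 2 downward (5.75%). For Col7a1 the soy difference was 0.13 under E2 and -0.55 without it, an interaction of 0.68 ± 0.09 (adjusted p = 0.000525). Col9a2 gave 0.14 and -0.46, an interaction of 0.60 ± 0.13 (adjusted p = 0.0119), and Col9a3 gave -0.32 and -0.79, an interaction of 0.46 ± 0.10 (adjusted p = 0.0085). For Col6a5 the differences were -0.21 and 0.27, an interaction of -0.49 ± 0.08 (adjusted p = 0.00199). The Ogn probe set 1383263_at gave -0.30 and -0.05, an interaction of -0.25 ± 0.07 (adjusted p = 0.039), which held in 3 of 12 runs without 1 array. An interaction of at least 1.5-fold upward was found for 2 members, Col7a1 and Col9a2 (0.773% of all probe sets), and Col9a2 was not among them without CAS 1, SPI 2, E2 3 or SPI+E2 2. For the other 66 probe sets no difference between the soy effects was detected, which does not show that they were equal.

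Adding E2 to the soy diet (SPI+E2 against SPI) raised 3 members (5.56% of all probe sets rose) and lowered 2 (5.83% fell). Col7a1 rose by 0.66 ± 0.07 (1.58-fold, adjusted p = 5.62e-05), Prelp by 0.35 ± 0.07 (adjusted p = 0.00626) and Col13a1 by 0.28 ± 0.08 (adjusted p = 0.0444, held in 2 of 12 runs without 1 array). Col6a5 fell by 0.42 ± 0.06 (adjusted p = 0.000451) and Col15a1 by 0.21. Prelp was the 1 member that rose with E2 on both diets. All 3 SPI+E2 arrays lay above all 3 SPI arrays for 10 members (13.9% of all probe sets) and below them for 12 (12.2%), and 1 member, Col7a1, was at least 1.5-fold higher (0.393%).

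SPI set directly against E2 gave the most calls, with 36 members lower (8.75% of all probe sets) and 1 higher (7.98%). Aspn differed most, by -0.71 ± 0.07 (1.64-fold, adjusted p = 4.62e-05) and -0.68 ± 0.11 on its probe sets, next to Col25a1 (-0.71 ± 0.20, adjusted p = 0.0304), Col12a1 (-0.65 ± 0.06), Loxl2 (-0.56 ± 0.11), Ogn (-0.55 ± 0.13) and Col7a1 (-0.53 ± 0.07). All 4 Ogn probe sets (1383263_at not without E2 1, adjusted p = 0.0565), Prelp (-0.44) and Loxl1 (-0.22) were lower here, as were 10 of 12 small proteoglycan, 8 of 13 enzyme and 18 of 46 collagen probe sets. Col6a5 was the member higher in SPI than in E2 (0.21), and its call was lost without SPI 1, SPI 2, E2 1 or E2 3 (adjusted p up to 0.102). That of Col25a1 was lost without any 1 of the E2 arrays (adjusted p up to 0.0932), and its difference was -0.41 without SPI 1. Of the 37 calls, 26 held in all 12 runs, and all 3 SPI arrays lay below all 3 E2 arrays for 45 members (16.5%) and above them for 1 (17.4%). A fall of at least 1.5-fold was seen in 4 members (0.528%).

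Genes with several probe sets did not always give the same answer. Of 15 such genes, the sign of the SPI difference from CAS differed between probe sets in 2 and the call in 5, and for SPI+E2 the sign differed in 4 and the call in 7. Aspn, Col14a1, Col15a1 and Loxl2 passed on all their probe sets in both soy groups. Col12a1, Col6a2, Ogn and P4ha2 had 1 or more probe sets that passed and 1 or more that did not. Neighbouring pairs among protein-coding genes, beyond the 3 genes on chromosome 17, were Prelp and Fmod, Col4a2 and Col4a1, Col6a1 and Col6a2, Dcn and Lum, Col6a6 and Col6a5, and Col3a1 and Col5a2, and within Col6a6 and Col6a5 only Col6a5 passed against CAS.

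Some partners of the members also fell on the soy diet. Of 27 probe sets for genes of collagen folding and export, 11 fell with SPI, 7 with SPI+E2 and 1 with E2. Of all probe sets 9.07%, 4.33% and 4.36% fell. The medians were -0.13, -0.13 and -0.02, and 1 rose with E2 (4.99% of all probe sets rose). With SPI 16 of the 27 did not pass, and with SPI+E2 20 did not. Serpinh1, the collagen chaperone HSP47, fell by 0.23 with SPI and by 0.33 with SPI+E2 on 1371310_s_at. P3h4, part of a complex that modifies lysine, fell by 0.40 and 0.33 (1369805_at). Tmem38b, an ion channel of the endoplasmic reticulum, fell by 0.54 with SPI and rose by 0.50 with E2 (1376719_at).

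Of 6 probe sets for procollagen processing, 3 fell and 1 rose in each soy group, and 0 passed with E2. Of all probe sets 9.07% fell and 8.25% rose with SPI, and 4.33% fell and 4.14% rose with SPI+E2. Fn1 (fibronectin) fell by 0.19 with SPI and 0.17 with SPI+E2, and Pcolce, which speeds up removal of the C-terminal propeptide, by 0.15 and 0.25. Bmp1, the protease that removes it, rose on 1389048_at by 0.21 and 0.17, and its other probe set gave -0.16 and -0.15 without passing. Of 9 receptor probe sets, 5 fell and 1 rose with SPI, 3 fell with SPI+E2, and 1 rose with E2 (4.99% of all probe sets rose). Ddr2, a receptor kinase for fibrillar collagen, fell on all 3 of its probe sets with SPI (-0.45, -0.28 and -0.24), and Itga1, a collagen-binding integrin chain, fell by 0.19 with SPI and 0.32 with SPI+E2. Ddr1, the related receptor of epithelia, rose on 1370217_at with SPI (0.21) and E2 (0.28).

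Marker lists of cells that make this matrix differed between groups, each in its own way. Of all probe sets 9.07% fell and 8.25% rose with SPI. With E2 4.36% fell and 4.99% rose, and with SPI+E2 4.33% fell and 4.14% rose. The 14 probe sets of fibroblasts and tendon had array means of -0.15 to -0.05 in SPI, 0.12 to 0.13 in E2, -0.13 to -0.10 in SPI+E2 and 0.02 to 0.04 in CAS, and 8 fell and 3 rose with SPI, 3 rose with E2 and 5 fell with SPI+E2. The differences from CAS in this list ran from -0.57 to 0.48 with SPI and from -0.60 to 0.15 with SPI+E2. Within that range Tnmd, a tendon marker, fell by 0.39 with SPI and 0.60 with SPI+E2. It does not stand for the whole list, in which 4 of the 14 differences were upward with SPI and 2 with SPI+E2. The 15 chondrocyte probe sets had array means of -0.42 to -0.33 in SPI, 0.07 to 0.13 in E2, -0.13 to -0.07 in SPI+E2 and 0.32 to 0.42 in CAS, with 14 falling in SPI and 11 in SPI+E2. With E2, 7 fell and the median difference was -0.26, where the members' median was 0.02. This list holds other cartilage collagens and runs in the same order as Col9a3. The 10 osteoblast probe sets had array means of -0.11 to -0.08 in SPI, 0.04 to 0.06 in E2, -0.09 to -0.03 in SPI+E2 and 0.04 to 0.05 in CAS, but only Dmp1 and Phex fell with SPI and Phex with SPI+E2, and the list's median differences were -0.04 and -0.07. The part of these cells in the members' differences was not tested.

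Other cells also differed between groups. The shares of all probe sets called are those given with the lists above. Skeletal muscle probe sets fell with SPI in 8 of 15, 1 rose with E2, and 1 fell and 2 rose with SPI+E2, with array means of -0.23 to -0.16 in SPI, 0.02 to 0.05 in E2, 0.04 to 0.12 in SPI+E2 and -0.02 to 0.03 in CAS. Nerve and Schwann cell probe sets rose with SPI in 14 of 15 and with E2 in 12, with nerve array means of 0.51 to 0.54 in SPI, 0.26 to 0.28 in E2, -0.33 to -0.30 in SPI+E2 and -0.40 to -0.35 in CAS. Of 9 erythroid probe sets, 8 fell in SPI and all 9 in both E2 and SPI+E2. Against CAS the median difference of the nerve list was 0.94 with SPI and 0.10 with SPI+E2. That of the muscle list was -0.14 with SPI and 0.01 with SPI+E2, and that of the members -0.14 and -0.16. The part of these cells in the members' values was not tested.

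**Figure D5:**
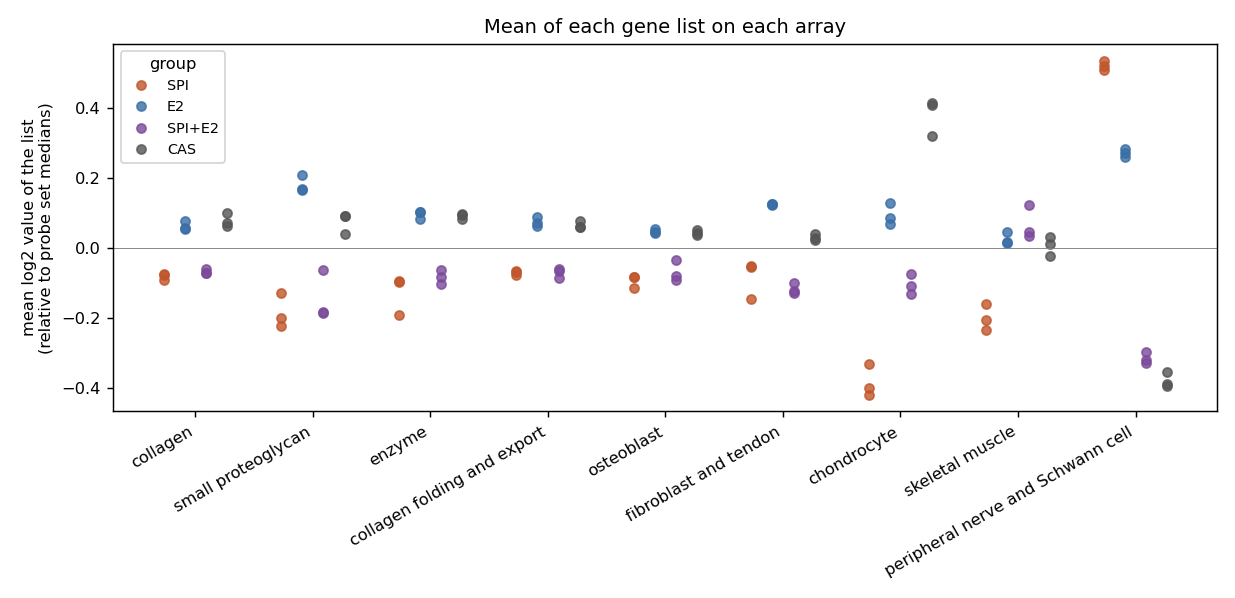
Mean normalized log2 value over the probe sets of each list (y axis) on each of the 12 arrays (points, coloured by group), for the 3 families, the folding and export genes and 5 marker lists (x axis). For the 3 families, folding and export, osteoblast and fibroblast and tendon lists the SPI and SPI+E2 arrays lie below 0 and the E2 and CAS arrays above. In the nerve and skeletal muscle lists SPI and SPI+E2 lie on opposite sides of 0. Each probe set's 0 is its median over the 12 arrays and not the CAS level.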

How the data were processed

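Total RNA of tibia pools was hybridised to Affymetrix GeneChip rat expression arrays. The authors deposited log2 values made by RMA (GCOS and RMA are named without versions) and normalized per chip and per gene in GeneSpring 7.3; each probe set has a median of 0 over the 12 arrays. The log2 base comes from the study's methods and cannot be read from the centred values, which carry no absolute level. Control probe sets were left out, and 20826 of the 31042 tested had 1 gene symbol.

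A 4-group model was fitted with limma 3.58.1 (R 4.3.3, statmod 1.5.0) to all 31042 probe sets, with 7 contrasts, an adjusted p (Benjamini-Hochberg over the whole table) and a threshold of 0.05. The scripts were tested on simulated data. Named for each comparison were up to 10 highest and 10 lowest members past the threshold, and every array is given for leading members of each class; other members named were chosen after their values were seen. Members and lists were chosen with earlier results of these data known, and the TATAAA search was added after the files were read. Alternatives were 2-group fits, pool number as a block, quantile normalization, median centring, robust variances, array weights, gene means, unadjusted p, 1.5-fold without a test, the methods' ANOVA, and leaving out each array. The 12 arrays held 0 identical pairs. The main fit did not pair arrays by pool number. Protein features were not used here.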

Additional observations from a re-analysis of the deposited data

Results flagged for a closer look

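For 5 members the soy difference on the E2 background differed from that on the casein background by the interaction term of the limma fit. Of these, 3 were upward (4.23% of the members beside 4.17% of all probe sets) and 2 downward (2.82% beside 5.75%). The members' share was thus not above that of all probe sets by more than 0.1 in either direction. The interaction, the soy difference under E2 minus that without it, was 0.68 for Col7a1 (adjusted p = 0.000525), 0.60 for Col9a2 (adjusted p = 0.0119) and 0.46 for Col9a3 (adjusted p = 0.0085). It was -0.49 for Col6a5 (adjusted p = 0.00199) and -0.25 for the Ogn probe set 1383263_at (adjusted p = 0.039, held in 3 of 12 runs without 1 array). The chondrocyte list, which holds other cartilage collagens and is low in SPI as Col9a2 and Col9a3 are, had 10 of 15 probe sets with a positive interaction past the threshold. This was not particular to it: 9 of 9 erythroid, 8 of 10 cell division and 5 of 9 adipocyte probe sets also had one. The nerve list had a negative interaction in 14 of 15. The part of these lists in the members' values was not tested. Groups held 3 arrays, so single arrays were not tested as outliers.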

How the results depend on the processing

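None of the 148 differences past the threshold, over 71 members and 7 comparisons, changed sign under any alternative run on single probe sets. The sign could change only under quantile normalization, median centring, array weights or the loss of an array of a compared group. Other alternatives keep the same group means. Of the 349 that did not pass, 102 changed sign, each with a main value within 0.17 of 0. Of 616 values for 28 results on named members, 538 kept their side of the threshold and 78 lost the call, 24 of them under the 1.5-fold rule. The 28 values at unadjusted p, among the 538, could not lose the call. At 1.5-fold without a test the counts of members were 3, 0 and 1 for SPI, E2 and SPI+E2 against CAS, 4 for SPI against E2, 1 for SPI+E2 against SPI, 1 for SPI+E2 against E2 and 2 for the interaction. Shares of all probe sets called at the same setting are in brackets. With 2 groups only in the fit, the SPI against CAS count fell from 33 to 22 (11.5%). SPI against E2 went from 37 to 26 (10.3%) and SPI+E2 against E2 from 34 to 29 (7.88%). SPI+E2 against CAS gave 18 (6.26%) and SPI+E2 against SPI gave 3 (5.35%), while E2 against CAS stayed at 6 (10%). The interaction was not run this way. For E2 against CAS the count was 10 after quantile normalization (11.4%), 13 with array weights (13.4%), 18 at unadjusted p (20.3%) and 10 by the methods' ANOVA (9.42%). For SPI+E2 against SPI it was 20 at unadjusted p (24.5%), 12 by the methods' ANOVA (11.4%) and 9 of 53 for gene means (17.1% of genes). For the interaction it was 8 after quantile normalization (9.75%), 11 at unadjusted p (21.7%) and 8 by the methods' ANOVA (10.2%). The cause was not tested.

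Leaving out 1 array gave against CAS 21 to 32 calls with SPI, 1 to 8 calls with E2 and 14 to 32 calls with SPI+E2, and 28 to 37 for SPI against E2, 4 to 5 for SPI+E2 against SPI, 20 to 39 for SPI+E2 against E2 and 4 to 5 for the interaction. Same-numbered arrays correlated at -0.0741 to 0.2441 over 18 pairs, 4 of them over 0.1, and 4 of 12 arrays lay nearest to their own number, so the arrays share only a number. With pool number as a replicate block the counts were 32, 5 and 22 for SPI, E2 and SPI+E2 against CAS, 36 for SPI against E2, 5 for SPI+E2 against SPI, 33 for SPI+E2 against E2 and 5 for the interaction. It ended 11 calls: Col5a2 (1370895_at) and Col11a2 with SPI, Col11a2 with E2, Fmod, Lox (1368172_a_at), Col5a1, Col5a2 (1373463_at), Loxl2 (1380474_at) and Col6a3 with SPI+E2, Col15a1 (1379345_at) in SPI against E2, and Plod2 in SPI+E2 against E2. Their adjusted p with the block lay between 0.0508 and 0.0693. A trend in the variances could not be fitted on centred values, so robust variances were used alone. Signal over background is unknown, since the values are centred.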
